A study of Mus musculus with 10 samples.

Results

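Alcohol and aldehyde dehydrogenases were described in livers of mice that had lost the histone variant H3.3 in hepatocytes. The set held 8 genes, Adh1, Adh4, Adh5, Aldh1a1, Aldh1a7, Aldh1b1, Aldh2 and Aldh3a2, found by their symbols among the 55421 gene identifiers of the deposited count table. All 8 had enough reads to be tested. In brief, Adh4, Adh5 and Aldh1a7 were at 41.1% to 51.7% of the control mean in H3.3 KO livers, with every KO liver below every control. Aldh2 fell to 74.4% and Aldh3a2 rose to 159% of the control mean, with overlapping livers. The difference of Aldh3a2 passed the test against the floxed controls without Cre but not against the wild-type controls with Cre. Adh1, Aldh1a1 and Aldh1b1 did not pass the test.

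Whole-liver transcriptomes (poly(A) RNA-seq) of 10 male mice were profiled, each taken 3 weeks after a viral vector was injected at 6 months of age. The H3.3 KO group held 4 mice with both H3.3 genes floxed (H3f3afl/fl and H3f3bfl/fl) that received AAV8-Tbg-Cre, a viral vector in which the hepatocyte promoter Tbg drives Cre. The WT Cre controls were 3 wild-type mice given the same Cre vector, and the MCS controls were 3 floxed mice given AAV8-Tbg-MCS, which carries no Cre. The genotype entries of the floxed mice name HIRA, whereas their titles name H3f3a and H3f3b, and the titles were followed. All groups had received AAV8, and Tbg limits Cre to hepatocytes, so that the other liver cells keep both genes. In bulk RNA, fewer cells of a type and less RNA per cell cannot be told apart.

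As a check of the labels, H3f3a was at 25.7% to 30.6% and H3f3b at 24.9% to 35.4% of the control mean in the 4 KO livers. Total counts ran from 14998426 in KO 1 to 26096141, so that even Aldh1b1, the lowest member per length, was well counted in each liver. KO 1 stood apart for these genes. It was the highest of the 4 KO livers for 8 of 8 members, against 48.3% of the 2762 genes with a mean of at least 50 CPM (read counts scaled to a common library size with the TMM method), and KO 4 was the lowest for 7 of 8, against 43.7%. Fold changes of the members against the pooled controls that KO 1 moved by over 1.5 times, or whose call or direction it set, are therefore given with and without it. Markers of several cell types moved with the groups. They were counted at an edgeR adjusted p under 0.05 against the pooled controls, where 19.7% of all genes tested were higher and 16.6% lower. In KO, 10 of 14 hepatocyte markers were lower and 0 higher (summed level 116000 to 175000 CPM in controls and 87300 to 103000 in KO), 10 of 12 stellate cell markers were higher and 0 lower (250 to 310 and 509 to 748 CPM), 10 of 10 Kupffer cell markers were higher (248 to 468 and 579 to 1260 CPM) and 6 of 8 lymphocyte markers were higher and 0 lower (9.4 to 15 and 19.9 to 53.1 CPM). Of 10 endothelial markers 1 was higher and 1 lower (403 to 504 and 365 to 562 CPM), with a median log2 fold change of 0.318. The lower one, Dpp4, fell from a mean of 120.7 to 45 CPM and so weighs on that sum. Of 8 cholangiocyte markers 1 was higher and 0 lower (51 to 82.2 and 72.1 to 90.8 CPM). The hepatocyte count depended on the kind of control. Against WT Cre controls 4 of 14 hepatocyte markers were lower and 0 higher, where 13.1% of all genes were lower. Against MCS controls 10 of 14 were lower and 0 higher, where 14.8% of all genes were lower. The summed level of the hepatocyte markers was 116000 to 129000 CPM in WT Cre and 142000 to 175000 in MCS controls. None of the markers of these cell types was at 0 in all livers of a group. Their part in the results below was not tested.

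Alcohol dehydrogenases oxidise alcohols to aldehydes with NAD+ in the cytosol, and aldehyde dehydrogenases oxidise the aldehydes to acids in the cytosol, mitochondria or microsomes. The liver is the main site of both steps for ethanol, and the same enzymes handle retinol and retinaldehyde, the aldehydes of lipid peroxidation, fatty aldehydes and, through glutathione, formaldehyde. Many of them are abundant hepatocyte transcripts, and several are zonated along the lobule.

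Levels between genes were compared per transcript length, in the FPKM values of the authors. Aldh2 was the most abundant member in the controls at 1960 ± 257 FPKM (SD, n = 6), followed by Adh1 at 966 ± 114 and Aldh1a1 at 563 ± 107. Adh5 (222 ± 7.89), Aldh3a2 (157 ± 59.2), Aldh1a7 (135 ± 13.7) and Adh4 (90 ± 15) came next, and Aldh1b1 was lowest at 28 ± 5.65 FPKM. The control ranges of neighbours in this order did not overlap, except those of Adh5 with Aldh3a2, Aldh3a2 with Aldh1a7, and Aldh1a7 with Adh4, which met at 115 FPKM. In KO the means kept this order (Aldh2 1650 ± 262, Adh1 1350 ± 181, Aldh1a1 457 ± 240 FPKM; SD, n = 4), apart from Aldh3a2 (268 ± 33.7), which came before Adh5 (133 ± 32.4). The last 3 were Aldh1a7 at 61.6 ± 45.4, Adh4 at 49.1 ± 19.1 and Aldh1b1 at 45.8 ± 29.7 FPKM, with overlapping ranges.

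Against the 6 pooled controls, 5 of the 8 members passed an adjusted p of 0.05 in edgeR's quasi-likelihood test, 1 higher and 4 lower, where 36.3% of all 22449 genes tested passed, 19.7% higher and 16.6% lower. Of these, Adh4 and Aldh1a7 also changed by over 1 on the log2 scale, a combination met by 18.7% of all genes. The median log2 fold change of the members was -0.45, and that of all genes was -0.00299. KO and control livers did not overlap for 3 of 8 members, all of them lower in KO, against 24.5% of all genes, 12% lower and 12.5% higher. Without KO 1 this was 5 of 8 members, all lower, with Aldh1a1 and Aldh2 added, against 38.1% of all genes, with 18% of all genes lower. The count that passed the test was 2 without KO 2, KO 3 or KO 4, where 29.8%, 29.2% and 31.2% of all genes passed.

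**Figure D1:**
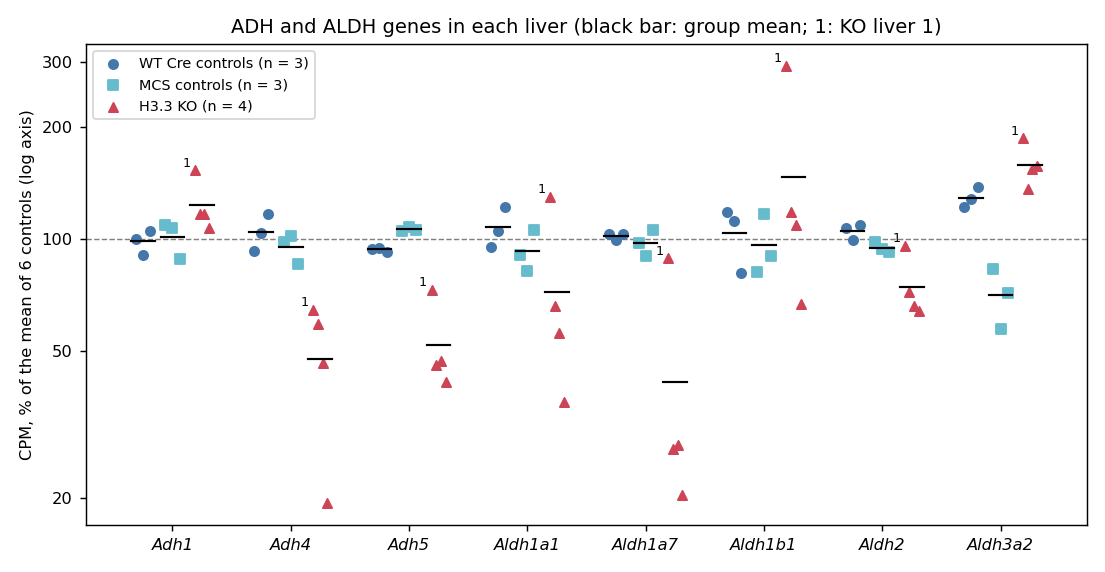
CPM of the 8 genes in each liver as a percentage of the mean of the 6 controls (log axis), with circles for WT Cre controls, squares for MCS controls, triangles for H3.3 KO and a black bar at each group mean; the digit 1 marks KO 1. All KO livers lie below all controls for Adh4, Adh5 and Aldh1a7, KO 1 is the highest KO liver for each gene, and the MCS controls lie below the WT Cre controls for Aldh3a2.

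Among the alcohol dehydrogenases, Adh1 encodes the main ethanol and retinol dehydrogenase of mouse liver. It was measured at 1724, 1567 and 1819 CPM in WT Cre controls 1 to 3, at 1877, 1849 and 1521 in MCS controls 1 to 3, and at 2640, 2015, 2013 and 1845 in KO 1 to 4. KO 1 was above all others, KO 2 and KO 3 were above every control, and KO 4 lay within the control range. Against the pooled controls Adh1 differed by 0.30 on the log2 scale (SE 0.127), with an adjusted p of 0.0798 in edgeR and an unadjusted p of 0.033, and it was 0.32 (0.122) against WT Cre and 0.28 (0.161) against MCS controls, with adjusted p in brackets. Without KO 1 the difference from the pooled controls was 0.181 (adjusted p 0.188), and those from WT Cre and MCS controls were 0.201 (0.168) and 0.162 (0.26). With all livers Adh1 passed against the pooled controls in DESeq2 (0.326, adjusted p 0.0248), with scaling to library size alone (0.471, 0.00823) and on the authors' log2(FPKM + 1) values with limma (0.481, 0.0111), and with library size alone also against WT Cre (0.0388) and MCS controls (0.0126). Scaling to library size alone also moved the median of all genes up by 0.175 on the log2 scale.

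Adh4, an alcohol dehydrogenase found mainly in liver that takes longer alcohols and retinol, fell to 47.3% of the control mean. Its levels were 139.6, 157 and 175 CPM in the WT Cre controls, 147, 153 and 129 in the MCS controls, and 96.8, 88.7, 69.6 and 29.1 in KO 1 to 4. All 4 KO livers were below all 6 controls, and KO 4 had less than any other liver. Against the pooled controls its log2 fold change was -1.08 (SE 0.269, adjusted p 0.00925 in edgeR), and it was -1.15 (0.322, 0.0248) against WT Cre and -1.01 (0.322, 0.0373) against MCS controls. The call against pooled controls held in all 19 alternatives, with adjusted p from 0.000429 to 0.029. The call against WT Cre was lost without WT Cre 2 (adjusted p 0.0622), WT Cre 3 (0.0745) or KO 3 (0.0539), and the call against MCS without WT Cre 2 (0.0517), MCS 1 (0.0891), MCS 2 (0.0983), MCS 3 (0.0603) or KO 3 (0.0777). With no filter beyond 1 count both calls were lost (0.0737 and 0.108), and the call against MCS was also lost with scaling to library size alone (-0.782, 0.0843) and on log2(FPKM + 1) and log2(FPKM + 0.1) values (0.0883 and 0.0845).

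Adh5 encodes the glutathione-dependent formaldehyde dehydrogenase, which also reduces S-nitrosoglutathione and is found in nearly all tissues. Its transcript was at 371, 374 and 365 CPM in the WT Cre controls, 414, 426 and 419.9 in the MCS controls, and 288, 181, 186 and 163 in KO 1 to 4. The controls were close to each other, with a mean of 395 ± 27.6 CPM (SD, n = 6), and all KO livers were below them, KO 1 least so. In KO it was at 51.7% of the control mean, a log2 fold change of -0.95 (SE 0.152; adjusted p 0.000399 in edgeR). It was -0.86 (0.168, 0.00285) against WT Cre and -1.04 (0.168, 0.000718) against MCS controls. In the pooled comparison the call held in all 19 alternatives, with an adjusted p of at most 0.00301.

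The 3 genes lie on the forward strand of mouse chromosome 3 (mm10, GENCODE M21), Adh1 at chr3:138260991-138290698, Adh4 at chr3:138415466-138430892 and Adh5 at chr3:138443093-138455499, in a cluster of 6 Adh genes that spans 237.7 kb. Adh4 starts 154.5 kb and Adh5 182.1 kb after the start of Adh1. The other genes of the cluster are named here for their position. Adh7, upstream of Adh1, was measured at 30.6 CPM in the controls and 24.2 in KO (log2 fold change -0.335, SE 0.112, edgeR adjusted p 0.0315), with overlapping livers. Adh6a and Adh6b, between Adh1 and Adh4, had control means of 0.0217 and 0.167 CPM and did not pass the test (adjusted p 0.0942 and 0.578). Metap1, the next gene after Adh5, did not pass either (log2 fold change -0.0305, SE 0.0884, adjusted p 0.822). Farther out, Mttp, upstream of Adh7, passed at 0.289 (SE 0.107, edgeR adjusted p 0.0499), with all KO livers above all controls. Trmt10a, upstream of Adh7, and Eif4e, after Metap1, did not pass (0.145 and 0.107).

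**Figure D2:**
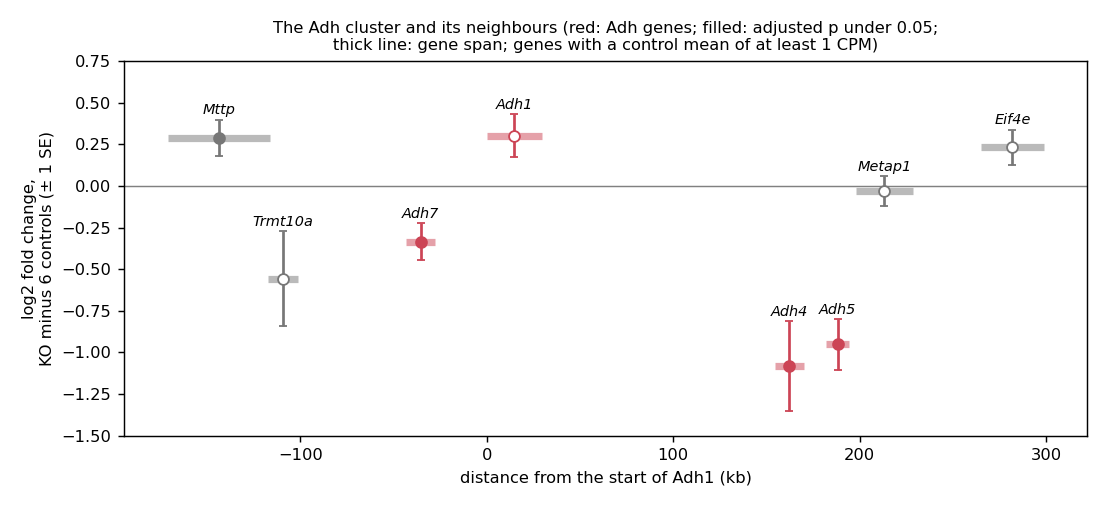
The log2 fold change of KO against the 6 pooled controls (± 1 SE) for the Adh cluster and its neighbours by distance from the start of Adh1 in kb; thick lines are gene spans, red marks Adh genes, filled points passed an adjusted p of 0.05, and genes with a control mean under 1 CPM are left out. Adh4 and Adh5 lie near -1, whereas Adh1 lies at 0.30 and Metap1 close to 0.

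The sum of Adh1, Adh4 and Adh5 was 2270 ± 163 CPM in the controls (SD, n = 6) and 2400 ± 426 in KO (SD, n = 4), with overlapping ranges of 2070 to 2440 and 2040 to 3020. Without KO 1, which had 3020, the KO mean was 2200 ± 136 CPM (SD, n = 3), below the control mean. Adh1 made up 73% to 76.6% of the FPKM of the 3 genes in the controls and 86.7% to 90.1% in KO. These shares are a description of the members and were not tested.

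Sequences upstream of the genes with the largest decreases are shown, since all KO livers lay below all controls for them. They are RefSeq windows of build GRCm38.p6 that hold the 250 bases before an annotated start, and 7 of the 8 members had at least 1 of them, 9 in all. Both strands were searched for letters known from promoters, namely the TATA box as TATAAA, the CCAAT box by its name, the GC box as GGGCGG, part of the HNF1 motif as GTTAAT, the core of the HNF4A motif as CAAAGTCCA and the C/EBP motif as TTNNGCAA. The matches stand in capitals, and those on the other strand read as their reverse complement, such as ATTGG for the CCAAT box. No matches overlapped. The Adh4 window, chr3:138415247-138415496 on the forward strand, holds 1 CCAAT box that begins 90 bases before the start. Of 2 Adh5 windows, the one shown, chr3:138442843-138443092 on the forward strand, holds 3 GC boxes that begin 108, 70 and 45 bases before the start, and its GC content is 63.6% against 41.6% for Adh4 and a median of 52.4% over all 32851 windows. The other Adh5 window, chr3:138436950-138437199, lies before an upstream start and holds a TATA box at 207 bases, no GC box and a GC content of 45.2%.
Adh4: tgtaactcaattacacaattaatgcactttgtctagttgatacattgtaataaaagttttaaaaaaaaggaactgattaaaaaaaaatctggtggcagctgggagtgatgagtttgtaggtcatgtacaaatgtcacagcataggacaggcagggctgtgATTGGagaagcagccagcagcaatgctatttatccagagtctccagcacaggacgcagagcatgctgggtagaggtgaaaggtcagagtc
Adh5: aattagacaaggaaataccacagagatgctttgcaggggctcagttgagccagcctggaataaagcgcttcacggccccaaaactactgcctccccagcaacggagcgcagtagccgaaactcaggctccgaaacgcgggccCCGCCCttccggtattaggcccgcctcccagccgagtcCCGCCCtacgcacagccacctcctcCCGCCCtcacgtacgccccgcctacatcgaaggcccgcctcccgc
CCAAT occurs in 33.8% and GGGCGG in 32.7% of all windows, so both are common. The Adh1 window, chr3:138277335-138277584, lies before a RefSeq start that is downstream of the GENCODE gene start at 138260991. It holds none of the motifs. CAAAGTCCA, found in 0.384% of all windows, is in none of the 9 windows of the members.

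Among the aldehyde dehydrogenases, Aldh2 encodes the mitochondrial enzyme that oxidises most of the acetaldehyde made from ethanol. Its levels were 3286, 3040 and 3343 CPM in the WT Cre controls, 3009, 2883 and 2827 in the MCS controls, and 2936, 2206, 2016 and 1957 in KO 1 to 4. KO 2 to 4 were below all controls, and KO 1 lay among the MCS controls. Its KO mean was 74.4% of the control mean, with a log2 fold change of -0.43 (SE 0.135; adjusted p 0.0244 in edgeR). It was -0.50 (0.146, 0.0229) against WT Cre and -0.35 (0.146, 0.0863) against MCS controls. The call against pooled controls was lost without WT Cre 3 (adjusted p 0.055), KO 2 (0.0798), KO 3 (0.0999) or KO 4 (0.0864), with scaling to library size alone (-0.262, 0.138) and on log2(FPKM + 1) values (-0.252, 0.158) or log2(FPKM + 0.1) values (0.15). The call against WT Cre was lost without WT Cre 1, 2 or 3 (0.0722, 0.05 and 0.0888), KO 2 (0.0644), KO 3 (0.0757) or KO 4 (0.0572), and without KO 1 Aldh2 passed against MCS controls too (-0.497, 0.000971).

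Adh1 was at 45.8 to 56.8 FPKM per 100 FPKM of Aldh2 in the controls and at 78.4 to 88.3 in KO. The ratio of the transcript for the first step of ethanol oxidation to that for the next was thus higher in each KO liver than in each control. This is a description of levels per length and was not tested.

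Aldh1b1 encodes a mitochondrial enzyme close to Aldh2 that takes acetaldehyde and other aldehydes. It was at 92.4, 88.2 and 63.4 CPM in the WT Cre controls, 64.0, 92.2 and 70.5 in the MCS controls, and 229.9, 92.3, 85.7 and 52.4 in KO 1 to 4. KO 1 was far above every other liver, while KO 2 and KO 3 lay within the control range and KO 4 below it. A log2 fold change of 0.55 (SE 0.349; adjusted p 0.255 in edgeR) did not pass, nor did 0.50 (0.446, 0.453) against WT Cre and 0.60 (0.448, 0.346) against MCS controls. Without KO 1 the sign turned, to -0.0309 against pooled controls (adjusted p 0.917) and -0.0831 against WT Cre (0.82), and the value against MCS was 0.0234 (0.951).

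Aldh3a2, the microsomal fatty aldehyde dehydrogenase, was the only member whose difference between the control kinds passed the test. It was at 649, 683 and 734 CPM in the WT Cre controls, at 442, 303 and 381 in the MCS controls, and at 996, 723, 820.1 and 837 in KO 1 to 4. All WT Cre controls were above all MCS controls, and all KO livers were above all MCS controls, but KO 2 lay below WT Cre 3. The control kinds did not overlap for Adh5 and Aldh2 either, but did not pass the test there (edgeR adjusted p 0.813 and 0.828). Against the MCS controls KO had a log2 fold change of 1.17 (SE 0.153, adjusted p 0.000187 in edgeR), whereas against WT Cre it was 0.29 (0.149, 0.164) and did not pass. Between the control kinds it was 0.88 (SE 0.16, adjusted p 0.0234), with WT Cre higher, 1.83 times the MCS level. The control kinds differ in genotype as well as in Cre, and the parts of genotype and Cre cannot be told apart here. The difference from the pooled controls, 0.67 (SE 0.23, adjusted p 0.0384), was lost without MCS 1 (0.0754), MCS 3 (0.0659) or any KO liver (0.0521 to 0.108). Without KO 1 the difference was 0.577 (0.108). The call was also lost with no filter beyond 1 count (0.101) and with the replicate block (0.123). The difference between the control kinds was lost without WT Cre 1, 2 or 3 (0.0707, 0.0886 and 0.14), MCS 2 (0.114) or MCS 3 (0.0867), while the difference between KO and MCS controls passed in each alternative.

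Aldh1a1 and Aldh1a7 are close paralogs of cytosolic aldehyde dehydrogenase; Aldh1a1 oxidises retinaldehyde to retinoic acid, and Aldh1a7 is a rodent gene best known as the phenobarbital-induced form in liver. Aldh1a7 had the largest fold change of the members. Its levels were 369.7, 357 and 370.2 CPM in the WT Cre controls, 349, 322 and 381 in the MCS controls, and 318, 97.5, 100.1 and 73.1 in KO 1 to 4. The 6 controls lay close together, KO 1 was just below them, and KO 2 to 4 were far lower. In KO it was at 41.1% of the control mean, a log2 fold change of -1.29 (SE 0.375; adjusted p 0.0221 in edgeR), and -1.99 (adjusted p 1.85e-07) without KO 1. It was -1.32 (0.45, 0.0576) against WT Cre and -1.26 (0.45, 0.062) against MCS controls, which did not pass, whereas without KO 1 both passed, at -2.02 (3.86e-07) and -1.96 (4.06e-07), as they did in DESeq2 with all livers (0.0079 and 0.0107). The call against pooled controls was lost without KO 2 (0.0654), KO 3 (0.0659) or KO 4 (0.0542), and with no filter beyond 1 count (0.0604).

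Aldh1a1 was at 1468, 1611 and 1876 CPM in the WT Cre controls, 1396, 1263 and 1629 in the MCS controls, and 2002, 1019, 860.4 and 559.5 in KO 1 to 4. KO 1 was above all controls and KO 2 to 4 were below all of them, so that the KO livers spanned more than the full control range. The difference of -0.47 on the log2 scale (SE 0.284; adjusted p 0.222 in edgeR) did not pass, nor did -0.57 (0.346, 0.251) against WT Cre and -0.36 (0.347, 0.464) against MCS controls. Without KO 1 all 3 comparisons passed, at -0.922 (0.00117), -1.02 (0.00219) and -0.814 (0.00728).

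**Figure D3:**
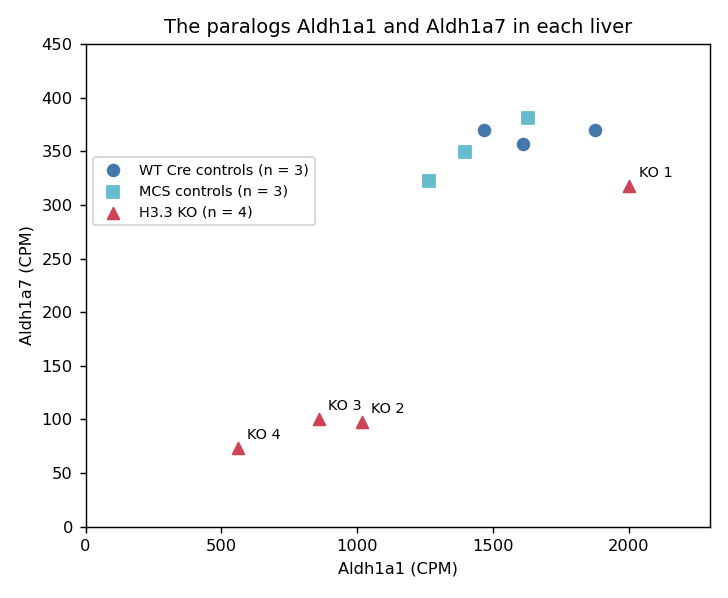
Aldh1a7 against Aldh1a1 in each liver, both in CPM on linear axes, with circles for WT Cre controls, squares for MCS controls and triangles for H3.3 KO. The 6 controls cluster at 1263 to 1876 CPM of Aldh1a1 and 322 to 381 CPM of Aldh1a7, KO 1 lies beside them at 2002 and 318, and KO 2 to 4 lie apart at 559.5 to 1019 and 73.1 to 100.1.

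The counts of Aldh1a7 were 19.7 to 25.5 per 100 counts of Aldh1a1 in the controls and 15.9, 9.57, 11.6 and 13.1 in KO 1 to 4. Each KO liver, KO 1 included, was thus below each control in this ratio, which was not tested. The genes are 49.5 kb apart on chromosome 19 on opposite strands, Aldh1a1 at chr19:20492715-20643465 forward and Aldh1a7 at chr19:20692953-20727562 reverse. Their transcripts were 89.0% identical over 2042 aligned bases, and 7.49% of the 50-base words of Aldh1a7 also occurred in Aldh1a1, so that some reads could have been assigned to either gene. No other pair of members compared, among Adh1, Adh4 and Adh5 or between Aldh2 and Aldh1b1 or Aldh1a1, shared a word of that length.

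The windows upstream of the pair are shown because the genes share sequence there as well. The Aldh1a1 window belongs to the downstream of its RefSeq starts, chr19:20601718-20601967 on the forward strand, and the Aldh1a7 window is chr19:20727557-20727806 on the reverse strand, with the same motifs in capitals.
Aldh1a1: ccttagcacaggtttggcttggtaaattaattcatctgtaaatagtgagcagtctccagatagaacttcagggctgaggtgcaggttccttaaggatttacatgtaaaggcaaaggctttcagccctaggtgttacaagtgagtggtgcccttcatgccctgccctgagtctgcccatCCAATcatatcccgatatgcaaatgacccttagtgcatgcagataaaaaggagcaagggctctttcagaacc
Aldh1a7: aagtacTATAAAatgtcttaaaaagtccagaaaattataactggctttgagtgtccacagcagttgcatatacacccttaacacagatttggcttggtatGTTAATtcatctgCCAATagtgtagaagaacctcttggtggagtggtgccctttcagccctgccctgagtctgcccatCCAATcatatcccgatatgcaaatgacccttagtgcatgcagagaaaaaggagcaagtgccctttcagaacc
The last 100 bases before the start were identical at 94 positions, with a CCAAT box 72 bases before the start in both. Aldh1a7 has a further CCAAT box at 137, a GTTAAT at 150 and a TATAAA at 244 bases before the start, motifs found in 33.8%, 6.43% and 12.4% of all windows. Against the window of the upstream Aldh1a1 start the identity was 65.9% over 82 aligned bases.

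Genes whose pattern over the 10 livers was among those most like that of Aldh1a7, of 8371 genes with a mean log2 CPM of at least 3, were Akr1c20 (Pearson r 0.993), Chpt1 (0.993), Mgst1 (0.992) and Suclg1 (0.991). Each was lower in KO, with log2 fold changes of -1.63, -1.66, -0.75 and -0.56, all of which passed the test (edgeR adjusted p 0.0169, 0.0195, 0.00419 and 0.00631). Over deviations from the group means r was 0.974 to 0.993. These correlations over 10 livers share their libraries and are given as a description.

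Against the separate control kinds, 3 of 8 members passed for WT Cre, 0 higher and 3 lower (Adh4, Adh5 and Aldh2), where 28.4% of all genes passed, 15.3% higher and 13.1% lower. Of the 3, 1 (Adh4) changed by over 1 on the log2 scale, against 15.9% of all genes. For MCS 3 of 8 passed, 1 higher (Aldh3a2) and 2 lower (Adh4 and Adh5), where 32% of all genes passed, 17.3% higher and 14.8% lower. All 3 changed by over 1 on the log2 scale, against 17.5% of all genes. Both comparisons use the same KO livers. Between WT Cre and MCS controls 1 of 8 members passed, Aldh3a2, where 0.927% of all genes did, 0.441% higher and 0.486% lower in WT Cre; it changed by less than 1 on the log2 scale, and 0.641% of all genes passed with a change over 1. Without KO 1 the counts were 5 for WT Cre and 6 for MCS, where 36.9% and 39.6% of all genes passed. The count for WT Cre was 1 without WT Cre 2, WT Cre 3 or KO 3, where 19.3%, 19.5% and 22.7% of all genes passed.

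**Figure D4:**
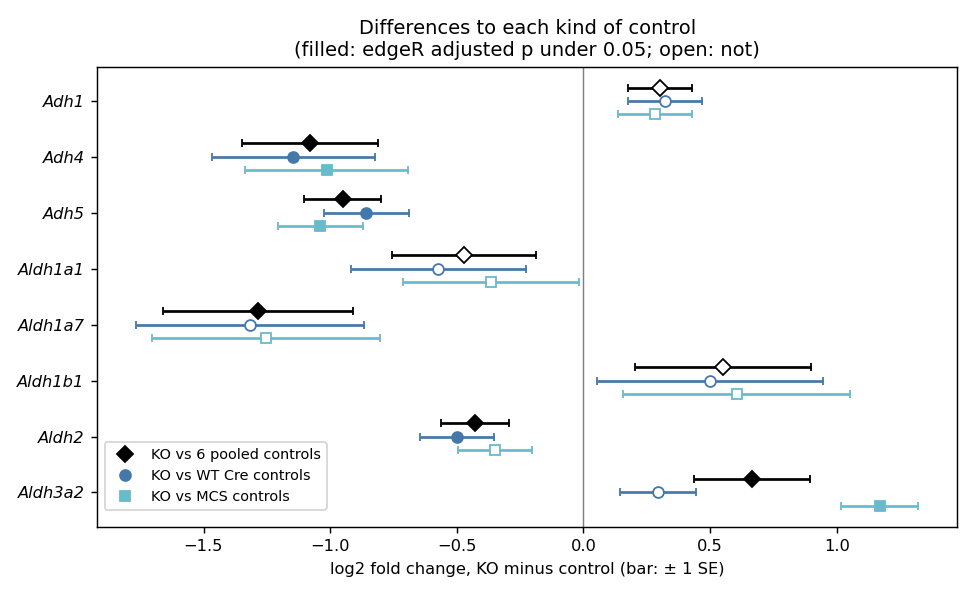
Log2 fold change of the 8 genes in KO against the 6 pooled controls (diamonds), the WT Cre controls (circles) and the MCS controls (squares), with bars of ± 1 SE; filled points passed an edgeR adjusted p of 0.05. The 3 estimates lie close together for each gene except Aldh3a2, with 0.29 against WT Cre and 1.17 against MCS controls.

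Genes of this and the following lists were counted as higher or lower at an edgeR adjusted p under 0.05 against the pooled controls. Of all genes tested, 19.7% were higher and 16.6% lower by that rule. Of 20 other alcohol and aldehyde dehydrogenase genes, 18 were tested, and 4 were higher and 7 lower, with a median log2 fold change of -0.336. Aldh1a2, a retinaldehyde dehydrogenase of stellate and mesothelial cells, rose by 2.85 on the log2 scale, from 0.161 to 1.16 CPM (edgeR adjusted p 0.000748). KO 1, at 0.13 CPM of Aldh1a2, lay within the control range, whereas KO 2 to 4 had 1.23, 1.43 and 1.84. Aldh1a3, which makes retinoic acid as well, rose by 1.40, from 0.331 to 0.885 CPM (0.00202). Aldh18a1, which makes the precursor of proline, rose by 1.96, from 1.04 to 4.01 CPM (5.11e-05). The most abundant, Aldh1l1, the formyltetrahydrofolate dehydrogenase of folate metabolism, fell to 751 from 1279 CPM (log2 fold change -0.77, 0.00149). The 3 genes named as higher were all low in the controls, and stellate cell markers, with a sum of 250 to 310 CPM in controls and 509 to 748 in KO, were higher beside them; the part of those cells was not tested.

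**Figure D5:**
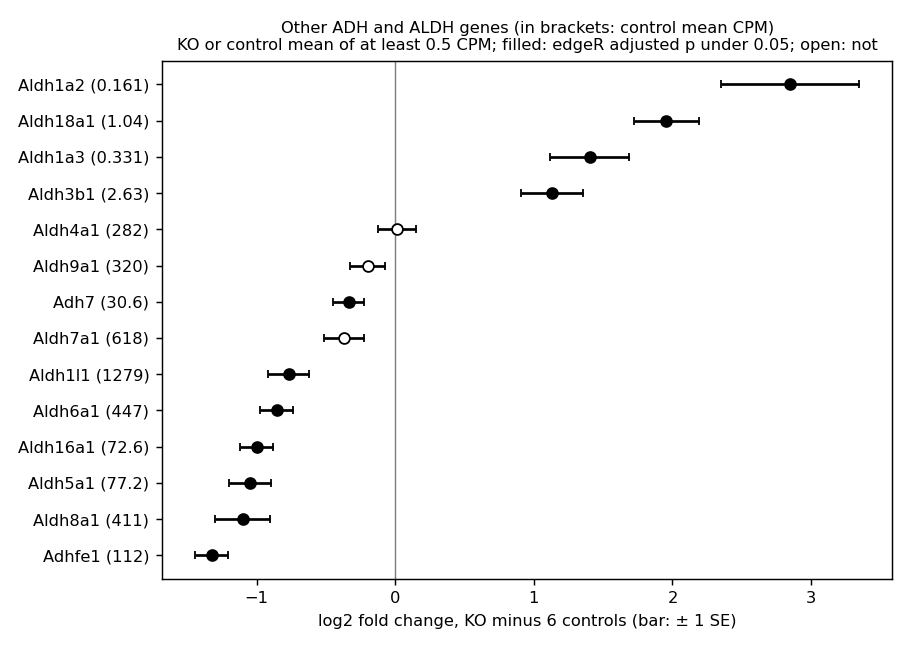
Log2 fold change of KO against the 6 pooled controls (± 1 SE) for the 14 other ADH and ALDH genes whose mean reached 0.5 CPM in KO or controls, with the control mean CPM in brackets; filled points passed an edgeR adjusted p of 0.05. Of the genes that passed, those that rose had control means under 3 CPM, and those that fell had control means from 30.6 to 1279 CPM.

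Ethanol is also oxidised by Cyp2e1, a pericentral cytochrome P450, and its end product acetate is activated to acetyl-CoA. Of 8 genes of ethanol and acetate steps outside both families, 5 were lower and 0 higher, where 16.6% of all genes were lower and 19.7% higher. Their median log2 fold change was -0.765. Cyp2e1, the most abundant, fell from 4908 ± 1143 CPM (SD, n = 6) to 1691 ± 265 (SD, n = 4; log2 fold change -1.54, SE 0.192, edgeR adjusted p 6.73e-05). The control kinds stood apart, at 3888 ± 357 CPM in WT Cre and 5927 ± 159 in MCS controls (SD, n = 3 each). The log2 fold change of Cyp2e1 was -1.20 against WT Cre and -1.81 against MCS controls (edgeR adjusted p 0.000123 and 5.7e-06). Slc16a7, a monocarboxylate transporter, and Acss3, a mitochondrial acyl-CoA synthetase, fell by 0.83 and 0.80 on the log2 scale (adjusted p 0.00545 and 0.0111). Of 10 pericentral markers, which include Cyp2e1, 5 were lower and 1 higher against the pooled controls. Of 10 periportal markers 8 were lower and 0 higher, and the median log2 fold changes were -0.775 and -0.538. These depended on the kind of control. Against WT Cre 5 pericentral markers were lower and 1 higher, and 5 periportal markers lower and 0 higher (medians -0.289 and -0.355). Against MCS controls 7 pericentral markers were lower and 2 higher, and 8 periportal markers lower and 0 higher (-1.17 and -0.749). Of all genes 13.1% were lower against WT Cre and 14.8% against MCS controls.

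Of 22 genes of retinoid metabolism outside both families, 6 were higher and 9 lower, where 19.7% of all genes were higher and 16.6% lower. Their median log2 fold change was -0.565. Rdh7, a retinol dehydrogenase, fell from 1137 to 365 CPM (log2 fold change -1.64, edgeR adjusted p 2.77e-05). Dhrs9, another retinol dehydrogenase, rose from 4.01 to 43.4 ± 46.8 CPM (SD, n = 4; 3.44, 0.00384), with a wide spread over KO livers. Rbp4, the plasma carrier of retinol and the most abundant of the list, was at 3012 CPM in controls and 2543 in KO and did not pass (-0.24, 0.133).

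Other enzymes act on aldehydes beside the members. Of 17 aldo-keto and related reductases 4 were higher and 6 lower, where 19.7% of all genes were higher and 16.6% lower. Their median log2 fold change was -0.281. The low Akr1b7 rose from 0.164 to 6.23 CPM (edgeR adjusted p 0.000325) and Akr1b10 from 1.36 to 3.92 (6.53e-05). Akr1c6, the most abundant, fell from 1081 to 396 (2.08e-05) and Akr1c20 from 90.6 to 29.5 (0.0169). KO 1 stood apart for Akr1b7, at 0.391 CPM against 5.38, 9.99 and 9.18 in KO 2 to 4. It did so for Akr1c20 as well, at 68.0 CPM against 17.4, 18.5 and 14.2. Glutathione and formaldehyde handling, in which Adh5 acts, had 5 of 11 genes lower and 0 higher, with a median of -0.416. Of all genes 16.6% were lower and 19.7% higher. Glo1, the glyoxalase that converts the adduct of methylglyoxal and glutathione, fell from 499.9 to 212 CPM (1.82e-05), and Hagh, the next enzyme of that pathway, from 256 to 186 (0.00851). Sardh, a mitochondrial enzyme that releases formaldehyde from sarcosine, fell from 701 to 359 CPM (0.00153), and Gnmt, which makes sarcosine and was the most abundant, was at 1703 and 1839 CPM and did not pass (0.642).

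Aldh3a2 acts on fatty aldehydes. Of 10 other genes of fatty and sphingolipid aldehyde steps 2 were higher and 3 lower, where 19.7% of all genes were higher and 16.6% lower. Their median log2 fold change was -0.117. Phyh, a peroxisomal enzyme of phytanic acid breakdown and the most abundant, fell from 1507 to 556 CPM (edgeR adjusted p 5.61e-05), and Cyp4f13, a fatty acid hydroxylase, from 70.1 to 33.8 (1.37e-05). Far1, which reduces fatty acyl-CoA to fatty alcohol, rose from 2.71 to 6.28 CPM (0.000616).

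The 5 aldehyde dehydrogenases together made up 5570 ± 544 CPM in the controls (SD, n = 6), 4860 to 6390, and 4500 ± 1350 in KO (SD, n = 4), 3480 to 6480. The overlap came from KO 1 at 6480 CPM, while KO 2 to 4, at 4140, 3880 and 3480, were below all controls. All 8 genes took 0.631% to 0.896% of the raw counts in the controls and 0.613% to 0.973% in KO, or 0.613% to 0.688% without KO 1. This share, not scaled by TMM, overlapped between groups either way. In CPM the sum of the 8 genes was 7290 to 8750 in the controls and 5510 to 9510 in KO, which overlapped. Without KO 1 the KO sum was 5510 to 6420 CPM, below all controls. Single members differed in both directions.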

How the data were processed

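Poly(A) RNA from whole livers was sequenced. The authors trimmed the reads and aligned them with STAR to mm10; the methods name HOMER for counting, whereas the submitters' processing notes name HTSeq and Cufflinks. The authors deposited raw counts per gene and FPKM values per gene; the strand setting and what was done with multi-mapping reads were not given in the sources used here. All 10 count columns were used and 0 were left out. Control columns 1 to 3 were taken as WT Cre and 4 to 6 as MCS by the number in the library names; values for 1 kind of control rest on that match. Replicates are separate mice by their labels, and their counts differed by more than sampling noise. Genes with at least 10 summed counts (22449) were fitted in edgeR 4.0.16 (R 4.3.3; TMM, robust quasi-likelihood F test, two-sided, Benjamini-Hochberg over all genes), KO against 6 pooled controls in 2 groups, and all other comparisons in 3 groups with shared dispersion. SE was taken as the log2 fold change over the root of its F value. The code was checked on simulated data. Alternatives were DESeq2 1.42.0, limma 3.58.1 (voom, and log2(FPKM + 1) or log2(FPKM + 0.1)), other scalings and filters, a replicate block and leaving out each liver. Members and gene lists were chosen with earlier results of these data known. Every member is named; of other lists, up to 3 genes with the largest absolute log2 fold change among those that passed, and the most abundant; some genes that this rule selects are not reported here. Coordinates are from GENCODE M21, and upstream windows from RefSeq.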

Additional observations from a re-analysis of the deposited data

Results flagged for a closer look

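Of 16 groups of livers examined (8 genes, in KO and in controls), 1 held a liver far from the others: Aldh1a7 in KO, where KO 1 was highest at 318 CPM, and its gap to the next KO liver took 0.89 of the range of the group, more than Dixon's limit for 4 samples. Chance alone marks about 1 in 20 groups.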

How the results depend on the processing

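Against pooled controls Adh4 and Adh5 kept their direction and call in all 19 alternatives. As reported 5 members passed, where 36.3% of all genes did. With no filter beyond 1 count 3 members passed, where 21.8% of all genes did. With the replicate block 3 members passed (Aldh2 edgeR adjusted p 0.0826, Aldh3a2 0.123), where 28.1% of all genes did. With a liver left out 2 to 5 members passed, where 29.2% to 40.9% of all genes did. For KO against WT Cre, 3 passed as reported (28.4% of all genes) and 1 to 5 with a liver left out (19.3% to 36.9%). Against MCS these were 3 (32%) and 2 to 6 (22.5% to 39.6%). For WT Cre against MCS they were 1 (0.927%) and 0 to 1 (0.317% to 2.33%). Over all genes the last comparison called 208 genes, against 643 in DESeq2, 386 with the replicate block, 315 with no filter beyond 1 count and 70 to 517 with a liver left out. The members whose groups did not overlap numbered 3, and 5 without KO 1, an alternative chosen after seeing the data. With a liver left out, Aldh1b1 ran from -0.0309 (without KO 1) to 0.80 against pooled controls, from -0.0831 (without KO 1) to 0.74 against WT Cre, and from -0.000484 (without MCS 1) to 0.275 between control kinds, so that its sign turned. Adh1 between control kinds, -0.0382 as reported, became 0.0959 with library size only, 0.124 with log2(FPKM + 1) and with log2(FPKM + 0.1), 0.00307 to 0.0179 without MCS 2, MCS 1 or WT Cre 2, and -0.129 without MCS 3. The cause was not tested. Replicate numbers were not taken to pair the livers, since 4 of 9 same-numbered pairs, not all, had a correlation of deviations over 0.1; 7 of the 9 livers with a same-numbered partner correlated best with their own number, a hint from the data and not from the design. With 3 or 4 livers per group, small differences were not detectable.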
